A study of Mus musculus with 1646 samples.

Results

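The ADAMTS proteases described here are 10 genes, Adamts1, Adamts2, Adamts4, Adamts5, Adamts8, Adamts9, Adamts10, Adamts12, Adamts15 and Adamts16, found by their Ensembl identifiers among the 46517 genes of the colon count table. They were followed in 1646 single mesenchymal cells of the mouse colon, sequenced with the SmartSeq2 full-length protocol from 9 plates of 384 wells. All cells came from adult male mice of 10 to 20 weeks on a C57Bl6/J background, and each was sorted for a fluorescent reporter and against the endothelial protein CD31. The reporter lines were PdgfrbGFP (761 cells, 4 plates), Acta2GFP (567 cells, 2 plates), PdgfraGFP (227 cells, 2 plates) and Cspg4dsRED (91 cells, 1 plate). The PdgfraGFP allele is a knock-in at Pdgfra and the other reporters are transgenes under the named promoter, so a line shapes which cells were caught. Tissue of Acta2GFP mice was additionally digested with elastase. The labels give each cell 1 of 8 clusters. Clusters 1, 2, 5, 6 and 7 are fibroblasts (1307 cells, 79.4%), and clusters 3, 4 and 8 are mural cells (339 cells, 20.6%), namely vascular smooth muscle cells (vascular SMC, 141 cells), pericytes (142 cells) and interstitial SMC (56 cells). The labels name no mouse, so the reporter line was taken as the sample and p-values measure the spread between lines.

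ADAMTS proteins are secreted zinc proteases with thrombospondin type 1 repeats. They are made with a prodomain that furin-type convertases remove, and they cut large molecules of the extracellular matrix, the protein and sugar scaffold between cells. The family is usually sorted by substrate into procollagen N-proteinases (Adamts2), proteases of the proteoglycans versican and aggrecan (Adamts1, Adamts4, Adamts5, Adamts8, Adamts9 and Adamts15), a fibrillin-associated group (Adamts10), proteases of the cartilage oligomeric matrix protein COMP (Adamts12), and less characterised members (Adamts16). In gut wall, as in other connective tissue, fibroblasts are the main makers of collagen and proteoglycan matrix, while mural cells wrap blood vessels or form muscle.

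The promoters of the most abundant members, Adamts2 in fibroblasts and Adamts1 in mural cells, are shown because their levels dominated the family and ran in opposite directions between these classes. RefSeq promoter sequence (build GRCm38.p6) was at hand for 4 of the 10 members, Adamts1, Adamts2, Adamts9 and Adamts12. Each sequence below is the 250 bases before the transcription start, read 5′ to 3′ on the gene's own strand, with capitals marking a TATA box (TATAAA) or a GC box (GGGCGG) on either strand, which reads CCGCCC where it lies on the other strand.
Adamts1, chr16:85803114-85803363, minus strand: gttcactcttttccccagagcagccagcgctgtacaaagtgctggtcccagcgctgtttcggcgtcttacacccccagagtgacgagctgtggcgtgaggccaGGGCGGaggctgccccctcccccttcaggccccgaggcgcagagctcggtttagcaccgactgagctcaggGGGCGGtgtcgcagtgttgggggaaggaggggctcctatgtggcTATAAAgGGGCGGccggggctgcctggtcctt
Adamts2, chr11:50601835-50602084, plus strand: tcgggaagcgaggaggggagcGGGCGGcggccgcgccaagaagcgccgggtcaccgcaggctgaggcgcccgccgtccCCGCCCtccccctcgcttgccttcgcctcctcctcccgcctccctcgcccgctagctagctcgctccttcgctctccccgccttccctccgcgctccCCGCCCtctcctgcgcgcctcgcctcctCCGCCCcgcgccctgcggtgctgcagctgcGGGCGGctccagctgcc
The Adamts1 window held 1 TATA box, 32 to 27 bases before the start, and 3 GC boxes. The Adamts2 window held no TATAAA and 5 GC boxes, and was 78.0% G and C against 65.6% for Adamts1 and a median of 52.4% over 32851 promoters. TATAAA or its other-strand form occurred in 12.4% of those promoters and a GC box in 32.7%. The AP-1 site TGANTCA and the cAMP response element TGACGTCA, present in 6.75% and 1.55% of promoters, were found in none of the 4 windows. A match of letters is a description of the window only.

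Levels are given as counts per 500000 gene counts of a cell, spike-in RNA left out, first averaged per class and reporter line, with the mean ± SD taken across lines holding 10 or more cells of that class. Cells carried 47598 to 1494292 gene counts, with a median of 248628. The defining markers were high in the classes of their labels. Col1a1 was 1958 ± 396 in fibroblasts (SD, n = 4 lines) and 317 ± 70.3 in mural cells (n = 3), Rgs5 was 3262 ± 193 in pericytes (n = 2), Myh11 was 1856 ± 291 in vascular SMC (n = 3), and Hhip was 1339 in interstitial SMC (n = 1). Cluster 2, the Tnc+Cd34- fibroblasts that the study placed beneath the surface epithelium, had Tnc at 1972 ± 121 and Cd34 at 41.3 ± 37.4 (n = 3), while Cd34 was 595 ± 101, 1026 ± 126 and 1293 ± 247 in clusters 1, 5 and 7. Summed markers of immune, epithelial and glial cells ranged over clusters from 0.733 to 6.92, from 0.990 to 13.1 and from 0.831 to 3.92, and mesothelial markers were at 0. Of the markers of interstitial cells of Cajal, Kit did not exceed 8.85 in any cluster mean, whereas Ano1 stood at 295 ± 215 in pericytes, 284 ± 73.7 in vascular SMC and 171 ± 64.2 in cluster 2. Of the endothelial markers Cdh5 did not exceed 0.687 in any cluster mean, whereas Tek stood at 110 ± 24.6 in cluster 5 and 180 ± 43.2 in cluster 7. The labelled clusters were made from these same counts, so every test between clusters describes the classes and is not an independent check of them. Some plates stood apart. On colon_685s and colon_686s (both PdgfrbGFP) Adamts4 was several-fold higher in fibroblasts, and on colon_075s (PdgfrbGFP) genes that respond to tissue dissociation were raised, so the Adamts1 and Adamts4 differences between fibroblasts and mural cells, and those of Adamts4 among fibroblasts, are also given without these plates.

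Divided by the exon length of each gene, so that genes can be compared, the members formed a different mixture in each cluster. The summed per-kilobase level was highest in vascular SMC at 128.6, of which Adamts1 made up 73.4%. That sum was 92.7 in Acta2GFP, 230.6 in Cspg4dsRED (30 cells) and 62.4 in PdgfrbGFP vascular SMC, and without Cspg4dsRED its mean was 77.5, below cluster 7. It was 81.3 in cluster 7, with Adamts2 at 36.7% and Adamts5 at 31.7%, and 71.2 in cluster 5, with Adamts1 at 39.0% and Adamts2 at 34.6%. Pericytes reached 65.8 with Adamts1 at 36.9%, Adamts4 at 27.4% and Adamts2 at 20.5%. Cluster 1 stood at 59.1, with Adamts2 at 48.8%. Cluster 2 had the lowest sum, 23.1, and Adamts4 made up 62.1% of it. Interstitial SMC and cluster 6 lay between, at 40.9 and 29.8. The leading gene was the same in each line of cluster 1 (Adamts2) and vascular SMC (Adamts1) and differed between lines in clusters 2, 4, 5, 6 and 7. In cluster 2 Adamts4 led in PdgfraGFP and PdgfrbGFP cells (78.0% and 66.5%) and Adamts1 in Acta2GFP cells (39.6%). In cluster 6 Adamts1 led in 10 Acta2GFP cells (50.9%) and Adamts4 in 26 PdgfraGFP cells (46.7%).

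**Figure D1:**
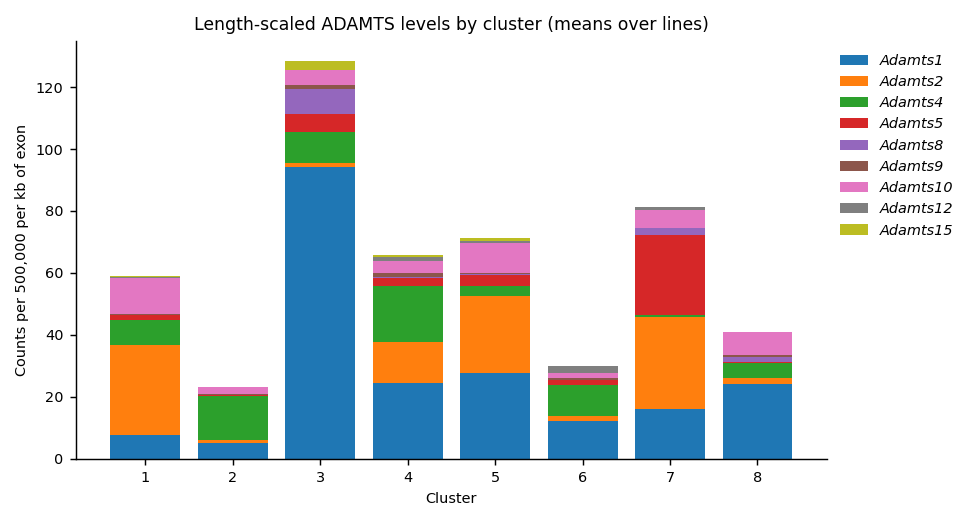
Summed level of the ADAMTS members per kilobase of exon (counts per 500000 gene counts per kilobase, y axis) in each of the 8 clusters (x axis), stacked by gene as means over reporter lines. Adamts1 fills 73.4% of the vascular SMC bar of 128.6 (77.5 without Cspg4dsRED), Adamts2 and Adamts5 fill most of the cluster 7 bar of 81.3, and Adamts4 fills 62.1% of the cluster 2 bar of 23.1.

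Positions are those of GENCODE vM21 on GRCm38. A pair of members lies side by side on chromosome 16, Adamts1 (chr16:85793827-85803113, minus strand) and Adamts5 (chr16:85856173-85901828, minus strand), 53.1 kb apart. Another pair lies on chromosome 9, Adamts15 (chr9:30899155-30922452, minus strand) and Adamts8 (chr9:30942562-30963838, plus strand), 20.1 kb apart. The others are Adamts2 (chr11:50602084-50807573, plus), Adamts4 (chr1:171250421-171260637, plus), Adamts9 (chr6:92772699-92943492, minus), Adamts10 (chr17:33524204-33553782, plus), Adamts12 (chr15:11064790-11349231, plus) and Adamts16 (chr13:70727802-70841811, minus). Exons of Adamts8 share 489 bases with Gm29724, and those of Adamts9 overlap A730049H05Rik and Gm15737, all antisense. Whether counting used strand is not stated in the sources used here, so counts from these shared bases are uncertain.

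Adamts2, which trims the amino-terminal propeptide from fibrillar procollagens, was the most widely detected member and had its highest means in the Cd34+ fibroblasts. Its level was 279 ± 72.9 in cluster 7 (n = 3), 269 ± 59.4 in cluster 1 (n = 3) and 230 ± 54.6 in cluster 5 (n = 4), and the ranges of neighbouring clusters in that order overlapped. In Acta2GFP, PdgfraGFP and PdgfrbGFP cells the level was 195, 324 and 318 in cluster 7. Pericytes followed at 179 in Cspg4dsRED and 73.3 in PdgfrbGFP cells, the higher of these level with the lowest line of cluster 5 (179). The remaining clusters held little, between 9.97 in cluster 2 and 17.1 in cluster 8. Per cell, a count was found in 96.2% of cluster 5 cells (exact binomial 95% interval 94.0 to 97.8%) and in 54.2% of cluster 2 cells (45.3 to 62.9%). After each cell was thinned to 50000 counts, these shares were 86.6% and 27.5%. A level of at least 100 was reached by 57.2% of cluster 5 cells, 20.4% of pericytes and 0.763% of cluster 2 cells. The median cell had 150 in cluster 5 and 2.29 among pericytes, where the top 10% of cells held 69.9% of the level.

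In the low clusters 2, 3, 6 and 8, the Adamts2 count of a cell went with the mean count of the other wells in its plate row and column, with a mean Spearman rho of 0.398 over 9 plates and 373 cells (0.188 to 0.745). The wells share library pools, and the part of this in the low levels was not tested. In their own low clusters the mean was 0.307 for Adamts1 (0.103 to 0.540), 0.319 for Adamts5 (-0.0788 to 0.578) and 0.244 over 5 plates for Adamts10 (-0.0944 to 0.486), so for the last 2 genes some plates had a negative value.

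Adamts1, a protease of versican and aggrecan that is known to respond quickly to stimulation, led the mural cells. In vascular SMC of Acta2GFP, Cspg4dsRED and PdgfrbGFP mice its level was 358, 926 and 216 (500 ± 376, n = 3), each above every line mean of the other clusters. Among fibroblasts it was highest in cluster 5, at 152, 149, 112 and 177 in the 4 lines (147 ± 26.7). Cluster 7 had 84.7 ± 36.7, cluster 6 had 64.2 ± 7.61, cluster 1 had 41.0 ± 13.7 and cluster 2 had 25.9 ± 15.2. Pericytes (129 ± 59.8, n = 2) and interstitial SMC (128, n = 1) overlapped with cluster 5. A level of 100 was reached by 53.2% of vascular SMC, 42.6% of cluster 5 cells and 6.87% of cluster 2 cells, and the top 10% of vascular SMC held 53.3% of the level of that cluster.

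Adamts5, an aggrecanase that also cuts versican, was concentrated in cluster 7. Its level there was 266, 299 and 270 in Acta2GFP, PdgfraGFP and PdgfrbGFP cells (278 ± 17.9, n = 3), the closest agreement between lines of any member in its highest cluster except Adamts10. Vascular SMC came next with 55.5 in Acta2GFP, 77.7 in Cspg4dsRED and 58.7 in PdgfrbGFP cells (64.0 ± 12.0). Neither group overlapped with the one below it. Cluster 5 stood at 38.2 ± 22.4, cluster 1 at 19.7 ± 5.37 and cluster 2 at 1.75 ± 2.26. In cluster 7, 82.7% of thinned cells held an Adamts5 count and 63.7% of cells had a level of at least 100. In cluster 2 a count was held by 13.7% of thinned cells, and the highest cell reached a level of 16.9.

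Adamts4, the other classical aggrecanase, had an almost opposite distribution. Its highest mean was in pericytes, at 93.9 in Cspg4dsRED and 79.5 in PdgfrbGFP cells (86.7 ± 10.2, n = 2), and in cluster 2, at 28.8, 66.2 and 112 in Acta2GFP, PdgfraGFP and PdgfrbGFP cells (68.9 ± 41.5). The pericyte values lay within the ranges of cluster 2 and of vascular SMC (14.6 to 111). It was lowest in cluster 7, where Adamts5 was highest, at 4.72, 0.322 and 4.22 in the same lines. Cluster 1 ranged from 13.8 to 87.8 over lines, and its highest line, PdgfrbGFP, held the 2 plates that stood apart. On plates colon_685s and colon_686s the fibroblasts as a whole stood at 210 and 215, against 9.56 to 44.0 on the other 7 plates. The same plates had cluster 1 at 401 (19 cells) and 433 (12 cells), and as a mean over plates cluster 1 reached 122, above pericytes at 87.8.

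Adamts8, a weak aggrecanase, and Adamts15, a versican protease, were both genes of vascular SMC in the order of levels, although in few cells. In vascular SMC of Acta2GFP, Cspg4dsRED and PdgfrbGFP mice Adamts8 reached 32.9, 62.1 and 16.8 (37.3 ± 23.0), and was found in 22.7% of cells (exact 95% interval 16.1 to 30.5%). It also reached 26.7 in cluster 7 of PdgfraGFP mice, a mean over 15 cells, against 0.946 and 2.05 in the other lines. Adamts15 was 21.4, 24.3 and 44.4 in the vascular SMC of the same 3 lines (30.0 ± 12.6) and was found in 32.6% of cells (25.0 to 41.0%). In interstitial SMC no Adamts15 count was found in 52 Acta2GFP cells. Adamts8 and Adamts15 are neighbours on chromosome 9, and among thinned vascular SMC Adamts15 was present in 12.0% of the cells with Adamts8 and 26.1% of those without it.

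Adamts9, another versican protease, was low throughout, with its highest means in pericytes and vascular SMC, at 33.6 in Cspg4dsRED and 8.17 in PdgfrbGFP pericytes (20.9 ± 18.0) and at 9.32, 28.6 and 17.2 in Acta2GFP, Cspg4dsRED and PdgfrbGFP vascular SMC (18.4 ± 9.72). Fibroblast cluster 6 came next, with 16.4 in PdgfraGFP and 2.69 in Acta2GFP cells (9.57 ± 9.73), above interstitial SMC at 5.60 (n = 1). The Cd34+ clusters had means of 0.140 to 3.55 and cluster 2 had 4.35 ± 3.22. The ranges of most neighbouring clusters overlapped.

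Adamts10, which binds fibrillin microfibrils, was led by clusters 1 and 5. Cluster 1 had 98.5, 95.7 and 89.8 in Acta2GFP, PdgfraGFP and PdgfrbGFP cells (94.7 ± 4.48), and cluster 5 had 79.4 ± 21.7. Cluster 7 was lower at 47.4 ± 3.17, and cluster 2 at 18.7 ± 2.39 and cluster 6 at 13.4 ± 3.62 were the lowest. Among mural cells it ranged from 30.2 ± 17.2 in pericytes to 61.1 in interstitial SMC. Adamts12, a COMP protease, was low, with means of 0.389 to 22.0, and its highest cluster mean, in cluster 6, joined 44.0 in PdgfraGFP with 0 in Acta2GFP cells. Adamts16 was close to absent, with 5 counts in 4 cells, all fibroblasts (0.306%, exact 95% interval 0.0834 to 0.782%), and 0 of 339 mural cells, where the limit of 3 cells that a count of 0 allows is a share of 0.885% and the exact upper bound is 1.08%. All intervals of shares treat cells as independent, so they do not cover the spread between mice, lines or plates.

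**Figure D2:**
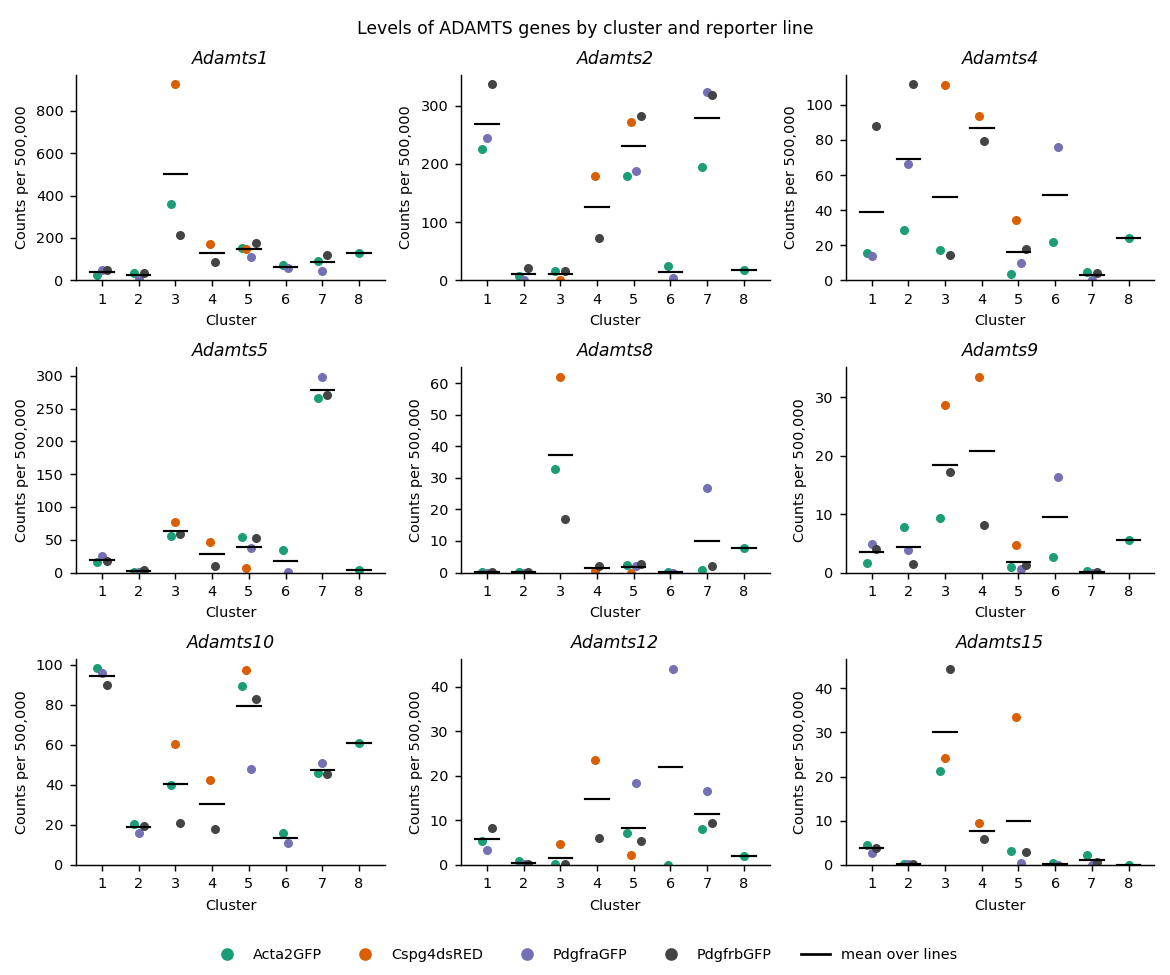
Level of 9 members (counts per 500000 gene counts, y axis, 1 panel a gene) in each cluster (x axis), with points for the reporter lines that held at least 10 cells of the cluster and bars for their mean. Adamts5 sits at 266 to 299 in cluster 7, Adamts1 at 216 to 926 in cluster 3, and Adamts2 is at most 24.9 in clusters 2, 3, 6 and 8.

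The first comparison asked which members demarcate fibroblasts from mural cells. For the edgeR quasi-likelihood test, counts were added up per class and line (4 fibroblast and 3 mural sums of 5723218 to 217742647 counts). The mural sums mixed vascular SMC, pericytes and interstitial SMC differently. They held 29, 3 and 52 of these cells in Acta2GFP, 30, 33 and 0 in Cspg4dsRED, and 82, 104 and 4 in PdgfrbGFP. The spread between mural sums includes this mixture, and its part in the fold changes was not tested. Adamts2 was higher in fibroblasts, and Adamts1 and Adamts9 were higher in mural cells. These were 3 of the 9 members that passed the filter on low counts, where 6.57% of the 19173 genes tested were called (3.21% as higher in fibroblasts and 3.36% as higher in mural cells). Adamts16 did not pass the filter. Over the 9 members the median log2 fold change was -0.79, beside -0.03 over all genes.

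For Adamts2 the fibroblast level was 181, 209, 146 and 292 in Acta2GFP, Cspg4dsRED, PdgfraGFP and PdgfrbGFP cells, and the mural level was 27.4, 94.1 and 49.3 in Acta2GFP, Cspg4dsRED and PdgfrbGFP cells. All fibroblast values were above all mural values, and the log2 fold change was 2.09 ± 0.49 (SE; edgeR adjusted p = 0.0349). Adamts1 stood at 77.6, 76.7, 57.4 and 108 in fibroblasts and 210, 531 and 152 in mural cells, again without overlap, with a log2 fold change of -2.24 ± 0.48 (adjusted p = 0.0223). Adamts9 was at 1.67, 4.17, 4.42 and 2.29 in fibroblasts and 8.44, 31.2 and 11.9 in mural cells, and its log2 fold change was -3.35 ± 0.72 (adjusted p = 0.0239). Adamts8 had the widest ratio, with a log2 fold change of -3.62 ± 1.08, and did not pass (adjusted p = 0.0817). Adamts4, Adamts5, Adamts10, Adamts12 and Adamts15 had log2 fold changes between -1.28 and 0.61 and adjusted p of 0.529 to 0.968.

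The calls were fragile with so few lines. With the line as a block, none of the 9 members was called by edgeR, where Adamts2 had a log2 fold change of 2.46 ± 0.48 (adjusted p = 0.0618), Adamts9 one of -3.14 ± 0.82 (0.126) and Adamts1 one of -1.87 ± 0.59 (0.184), while 4 were called by DESeq2 and 2 by limma without the block. Leaving out Acta2GFP ended all 3 calls (adjusted p of 0.0662 for Adamts1, 0.114 for Adamts2 and 0.0723 for Adamts9). Leaving out Cspg4dsRED or PdgfraGFP kept Adamts2 alone (adjusted p of 0.0303 and 0.0389), and leaving out PdgfrbGFP kept Adamts1 alone (0.0494). Without Cspg4dsRED the log2 fold changes of Adamts1 and Adamts9 were -1.34 and -2.29. The directions of all 3 genes were the same in each line with both classes. By plate, Adamts2 was higher in fibroblasts on all 6 plates with both classes, while on colon_685s Adamts1 was 179 in fibroblasts and 108 in mural cells, and on colon_686s Adamts9 was 32.8 and 11.9, both against the direction of the fit.

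**Figure D3:**
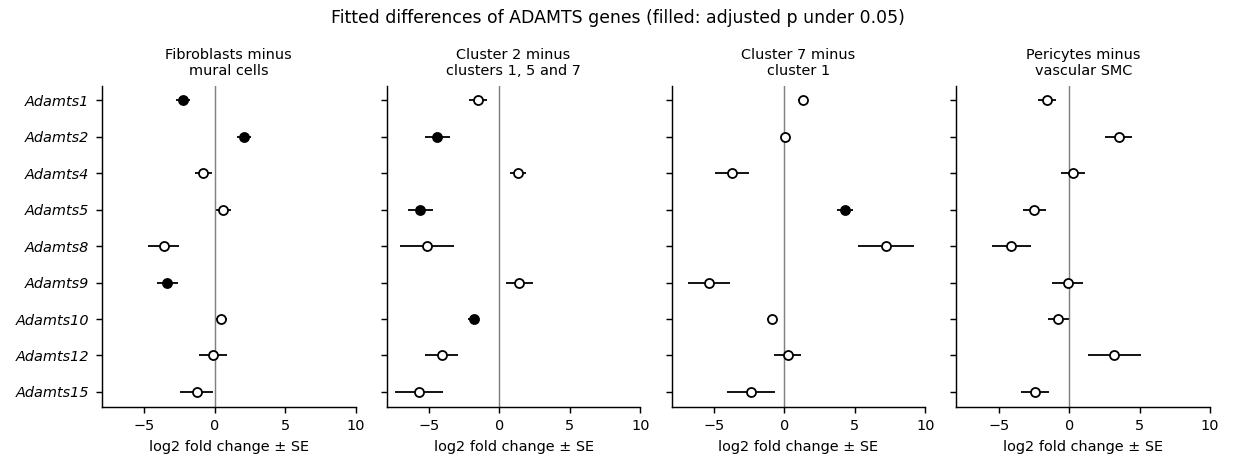
Log2 fold change ± SE from edgeR (x axis) for the 9 tested members (y axis) in 4 comparisons, with filled points for an adjusted p under 0.05. In fibroblasts against mural cells Adamts2 lies at 2.09, Adamts1 at -2.24 and Adamts9 at -3.35, and between clusters 7 and 1 Adamts5 lies at 4.30.

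The second comparison set the Tnc+Cd34- cells of cluster 2 against the Cd34+ clusters 1, 5 and 7 (3 and 4 sums of 5366909 to 203558618 counts), the axis from the surface epithelium into the mucosa that the study described. Of the 9 members tested 7 had a negative log2 fold change, that is, a lower level in cluster 2. Adamts2, Adamts5 and Adamts10 passed the test as lower there, 3 of 9 members, and 7.26% of the 15893 genes tested were called (3.76% as higher in clusters 1, 5 and 7). The median log2 fold change of the 9 was -4.11 beside 0.0047 over all genes. That median is the value of Adamts12, which was not called and had counts in 9 of 131 cluster 2 cells. Its estimate ran from -5.67 to -0.55 over the alternatives, so the median is not the size of a shared drop.

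Adamts5 showed the widest difference of these 3. Its level in cluster 2 was 0.620 in Acta2GFP, 0.275 in PdgfraGFP and 4.34 in PdgfrbGFP cells, and the log2 fold change was -5.60 ± 0.87 (edgeR adjusted p = 0.0053). Adamts2 was 7.92, 0.691 and 21.3 in the same lines, with a log2 fold change of -4.41 ± 0.90 (adjusted p = 0.0182). Adamts10 was 20.6, 16.0 and 19.5, and its log2 fold change was -1.82 ± 0.38 (adjusted p = 0.0188). The cluster 2 values of these genes lay below those of every line in clusters 1, 5 and 7. All 3 calls held with the line as a block and ended without Acta2GFP (adjusted p of 0.0837, 0.155 and 0.146), and that of Adamts10 also without PdgfraGFP (0.0861).

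Adamts4 pointed the other way in cluster 2, with a log2 fold change of 1.34 ± 0.56 (adjusted p = 0.213), and passed only with the line as a block (1.86 ± 0.38, adjusted p = 0.0455). Adamts12 (-4.11 ± 1.15, adjusted p = 0.0646), Adamts15 (-5.69 ± 1.71, adjusted p = 0.0809) and Adamts8 (-5.16 ± 1.91, adjusted p = 0.154) did not pass. They were rare in cluster 2, with counts in 9, 11 and 3 of 131 cells. Adamts1 had -1.51 ± 0.65 (adjusted p = 0.232) and Adamts9 had 1.40 ± 0.95 (adjusted p = 0.494). Cluster 2 also had the highest score of genes that respond to tissue dissociation, 7.33 to 8.28 over its 3 lines, and the part of this score in these differences was not tested.

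Among the Cd34+ fibroblasts, cluster 7 was compared with cluster 1 in a fit of clusters 1, 5 and 7 (10 sums of 2202988 to 85478239 counts). Adamts5 was the 1 member called of 9, higher in cluster 7, where 1.83% of 17153 genes were called (0.968% as higher in cluster 7 and 0.863% in cluster 1). It rose from 15.7, 25.8 and 17.6 in cluster 1 of Acta2GFP, PdgfraGFP and PdgfrbGFP cells to 266, 299 and 270 in cluster 7, a log2 fold change of 4.30 ± 0.57 (edgeR adjusted p = 0.00197). The estimate hardly moved over all alternatives, from 4.14 to 4.71, but the call ended when Acta2GFP, PdgfraGFP or PdgfrbGFP was left out (adjusted p of 0.0737, 0.0558 and 0.0741). Adamts2, abundant in both clusters, had a log2 fold change of 0.06 ± 0.26 (adjusted p = 0.997). Adamts8 (7.23 ± 1.97, adjusted p = 0.104), Adamts1 (1.31 ± 0.37, 0.117), Adamts9 (-5.35 ± 1.51, 0.118) and Adamts4 (-3.73 ± 1.22, 0.201) did not pass in edgeR. DESeq2 and the fit with plates as samples each called 4 members. DESeq2 called 462 genes higher and 719 lower here, against 166 and 148 in edgeR.

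Within the mural cells no member passed between pericytes and vascular SMC by edgeR, of 9 tested, where 0.668% of 16328 genes were called (0.263% as higher in pericytes and 0.404% in vascular SMC). At an unadjusted p under 0.05 there were 5 members, and DESeq2 called 1, limma 0 and the fit without a filter 2. The sizes were wide all the same. Adamts2 was 16.0, 1.22 and 16.0 in vascular SMC of Acta2GFP, Cspg4dsRED and PdgfrbGFP mice and 179 and 73.3 in pericytes of the latter 2, a log2 fold change of 3.50 ± 0.97 (adjusted p = 0.169). Adamts5 (-2.48 ± 0.83, adjusted p = 0.281), Adamts8 (-4.10 ± 1.39, adjusted p = 0.292), Adamts15 (-2.45 ± 1.00, adjusted p = 0.410) and Adamts1 (-1.57 ± 0.66, adjusted p = 0.420) had negative values that did not pass the test.

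Interstitial SMC reached 10 cells in a single line (52 Acta2GFP cells). Its p-values therefore hold no replicate spread of interstitial SMC itself and assume that the lone sum varies like the other mural clusters. Under that assumption Adamts15 was the 1 member of 9 that passed, with the lower level in interstitial SMC, where 1.04% of 16328 genes were called (0.643% as higher in vascular SMC) and the median log2 fold change of all genes was -0.31. With 0 counts among 7387255, a limit of 3 counts corresponds to an interstitial level of 0.203. The vascular SMC mean from summed counts was 34.9, and the lowest line had 19.1. SmartSeq2 reads carry no molecular identifiers and came from few cells, so this limit does not cover the spread between cells. Of 56 interstitial SMC 0 held a count, which allows a share of up to 5.36% by a limit of 3 cells. These cells were also shallower, with a median of 118252 gene counts against 359677 in vascular SMC. No fold is therefore given for Adamts15. The edgeR adjusted p was 0.0400, and the call was lost in 3 alternatives, with an adjusted p of 0.173 with the line as a block, 0.0647 with sums of at least 3 cells and 0.193 in limma. Adamts5 was 3.64 in interstitial SMC against 55.5 to 77.7 in vascular SMC, with a log2 fold change of -4.55 ± 1.27 that did not pass (adjusted p = 0.169). Adamts10, by contrast, had 61.1 against 20.7 to 60.6 (0.07 ± 0.92).

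The other genes of the pathway were counted by list. Of the rest of the family, 8 of 9 genes were tested between fibroblasts and mural cells and 2 were higher in fibroblasts, with 6 not called and a median log2 fold change of 1.95. Adamts3, a procollagen N-proteinase like Adamts2, had 7.33 ± 1.14 (edgeR adjusted p = 0.00557) and Adamts19 had 6.83 ± 1.11 (adjusted p = 0.00667), and neither was called with the line as a block. Along the crypt axis 2 of 7 were higher and 1 lower in cluster 2. Adamts7, the COMP protease closest in substrate to Adamts12, stood at 126 ± 98.8 in cluster 2 against 15.8 to 32.9 in the means of clusters 1, 5 and 7 (2.47 ± 0.41, adjusted p = 0.00794), and Adamts3 at 30.7 ± 5.38 against 0.745 to 4.76 (2.37 ± 0.58, adjusted p = 0.0378). Adamts19 was lower there (-5.16 ± 1.05, adjusted p = 0.0179, and 0.0549 with the block). Cluster 2 thus had a lower Adamts2 and a higher Adamts3 level, both of which act on procollagen. The Adamts3 call was kept in 8 of 12 alternatives and that of Adamts2 in 11, with directions unchanged. Of 6 tested between clusters 7 and 1, and of 5 tested in each mural comparison, edgeR called 0, with 3, 1 and 4 at an unadjusted p under 0.05. DESeq2 called 1, 0 and 3 of these, and limma 0, 0 and 2.

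The ADAMTS-like genes encode matrix proteins with the ancillary domains but no protease. Between fibroblasts and mural cells 4 of 7 were higher in fibroblasts and 2 lower, with a median of 1.67. With the line as a block 4 of these 7 were called in place of 6, and 3 in place of 5 along the crypt axis. Adamtsl2 was higher in fibroblasts (6.77 ± 0.94, adjusted p = 0.0032), while Adamtsl1 (-2.53 ± 0.50, adjusted p = 0.0158) and Thsd4 (-2.77 ± 0.56, adjusted p = 0.0177, and 0.0772 with the block) were higher in mural cells. Adamtsl1, like Adamts1, had its highest mean in vascular SMC, at 319 ± 94.2, and was lower in pericytes (-5.97 ± 0.79, adjusted p = 0.0062) and interstitial SMC (-7.41 ± 1.18, adjusted p = 0.0117), in each case 1 of 5 tested, the latter against a lone interstitial sum. In cluster 2, Papln was the 1 gene of 7 that was higher (6.25 ± 1.33, adjusted p = 0.0211, and 0.0902 with the line as a block), and 4 were lower, among them Adamtsl1 (-5.68 ± 1.04) and Adamtsl3 (-5.29 ± 0.90). In cluster 7 against cluster 1, 3 of 7 were higher and none lower, namely Adamtsl1 (3.31 ± 0.74), Adamtsl3 (4.77 ± 0.76) and Adamtsl5 (1.38 ± 0.24). These 3 calls were kept in 8, 10 and 8 of 12 alternatives, with directions unchanged.

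Of the known substrates, 9 of 17 tested were higher in fibroblasts than in mural cells and none lower, with a median of 2.26. The versican gene Vcan was 164 ± 38.7 in fibroblasts and 11.4 ± 10.1 in mural cells (4.07 ± 0.79, adjusted p = 0.0151, and 0.0954 with the line as a block), so the mural cells that had the higher Adamts1 and Adamts9 levels had the lower Vcan level. In cluster 2, 2 of 15 substrates were higher and 3 lower, with Fbn2 (6.27 ± 1.27, adjusted p = 0.0175) and Fbn1 (-2.58 ± 0.33, adjusted p = 0.00191), the fibrillins, on opposite sides. In cluster 7 against cluster 1, Nid1 (2.12 ± 0.19, adjusted p = 0.000193) and Fbn1 (1.84 ± 0.38, adjusted p = 0.0322) were higher, 2 of 15, with 0 lower. Nid1 was called in all 12 alternatives and Fbn1 in 9. Col3a1 was higher in pericytes (3.41 ± 0.57, adjusted p = 0.0223), 1 of 15 substrates, and in interstitial SMC (4.26 ± 0.65, adjusted p = 0.00944) than in vascular SMC, the latter with Col1a2 and Nid1, 3 of 15, against a lone interstitial sum. With the line as a block the calls were 8 of 17 between fibroblasts and mural cells, 5 of 15 between clusters 7 and 1, 6 of 15 in pericytes and 2 of 15 in interstitial SMC.

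Genes that restrain or activate the proteases also differed. Timp2, an inhibitor, was among the 3 of 4 inhibitor and clearance genes higher in fibroblasts (1.79 ± 0.31, adjusted p = 0.00948). In cluster 2, Timp1 was higher (2.23 ± 0.28, adjusted p = 0.00189), while Timp3, the main tissue inhibitor of the aggrecanases, was lower (-4.07 ± 0.82, adjusted p = 0.0171), at 28.1 ± 30.6 against 348 to 626 in the means of clusters 1, 5 and 7. Lrp1, the receptor that clears several ADAMTS proteins, was the other gene of 4 that was lower. Of the convertases, 2 of 4 were higher in fibroblasts, among them Pcsk6 (4.35 ± 0.89, adjusted p = 0.0184), and 2 of 4 were lower in cluster 2. With the line as a block 2 inhibitor and clearance genes were called in place of 3 between fibroblasts and mural cells. Of the genes for the carboxy-terminal step of procollagen processing, 3 of 4 were higher in fibroblasts (2 with the block), 1 of 4 was lower in cluster 2, and Pcolce2, an enhancer of that step, was the 1 of 4 higher in cluster 7 than in cluster 1 (5.81 ± 0.62, adjusted p = 0.000498). In the remaining comparisons of these 3 lists edgeR and limma called 0, with 0 to 2 genes of a list at an unadjusted p under 0.05. Between clusters 7 and 1, however, edgeR with the line as a block called 2 inhibitor and clearance genes and 1 convertase, and DESeq2 called 2 convertases.

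The members were also compared by plate, since each plate was one library pool. A score of 16 genes known to respond to tissue dissociation (Fos, Jun, Egr1 and others), the mean of log2(level + 1), ran over lines from 7.33 to 8.28 in cluster 2, from 6.92 to 7.76 in vascular SMC, from 5.57 to 6.72 in cluster 5 and from 3.81 to 5.50 in cluster 1. Within a cluster and plate of at least 20 cells, the Adamts1 level went with the score in 22 of 24 strata, with a median Spearman rho of 0.243 (-0.144 to 0.620), given as a description since cells of a stratum share depth and plate. For Adamts2 the relation was positive in 14 of 25 strata, with a median of 0.0539.

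On the PdgfrbGFP plates colon_073s and colon_075s the score of cluster 5 was 5.39 and 8.23, and the Adamts1 level was 108 and 199. In cluster 7 the score was 5.11 and 7.73 and Adamts1 was 84.3 and 183. Adamts2 was 290 and 281 in cluster 5, 398 and 302 in cluster 1 and 355 and 292 in cluster 7. Plate colon_075s was thus higher in both the score and Adamts1, and the part of dissociation in the Adamts1 levels was not tested. Without plate colon_075s the difference of Adamts1 between fibroblasts and mural cells was -2.33 ± 0.46 (adjusted p = 0.0162), and without plates colon_685s and colon_686s it was -2.61 ± 0.41 (adjusted p = 0.00465). Without these 2 plates Adamts4 had a log2 fold change of -1.08 ± 0.59 between fibroblasts and mural cells (edgeR adjusted p = 0.344), 1.64 ± 0.51 in cluster 2 against clusters 1, 5 and 7 (0.0906) and -2.91 ± 1.14 in cluster 7 against cluster 1 (0.318). Without colon_075s the same differences of Adamts4 were -0.68 ± 0.60 (edgeR adjusted p = 0.632), 0.69 ± 0.63 (0.662) and -4.39 ± 1.35 (0.153). It was called in none of these, as with all plates.

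**Figure D4:**
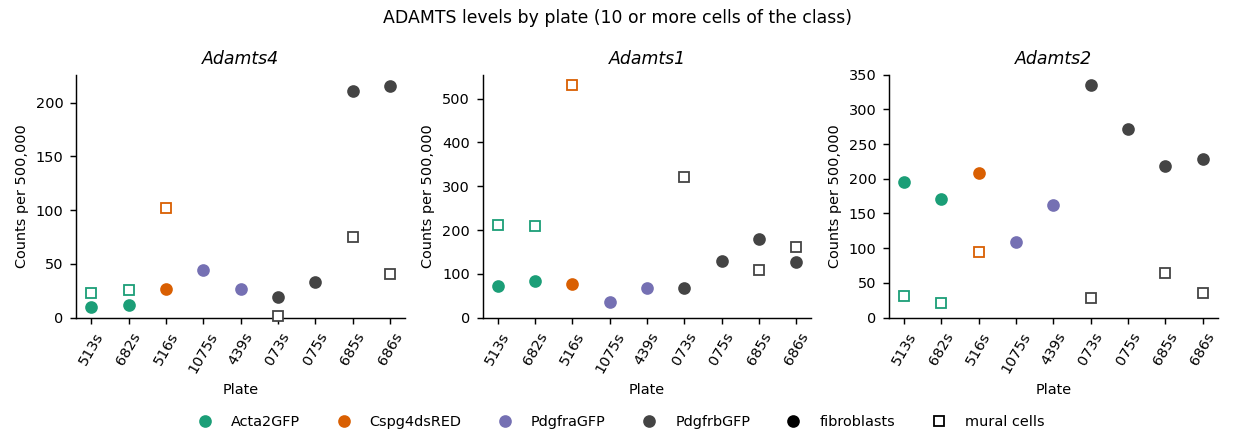
Level of Adamts4, Adamts1 and Adamts2 (counts per 500000 gene counts, y axis) on each plate (x axis), with filled circles for fibroblasts and open squares for mural cells. Adamts4 in fibroblasts reaches 210 and 215 on plates colon_685s and colon_686s and 9.56 to 44.0 elsewhere, and Adamts2 in fibroblasts stays above mural cells on the 6 plates that have both.

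The members did not move as one block. Over the 21 means of a line in a cluster, the Pearson correlation of log2(level + 1) was positive for 23 of the 36 pairs of 9 members and negative for 13, with a median of 0.175. These means share lines, plates and depth, so the values are a description. The closest pairs were Adamts4 with Adamts9 (0.695), Adamts1 with Adamts8 (0.679), Adamts2 with Adamts10 (0.656) and Adamts1 with Adamts15 (0.644). Adamts4 and Adamts5, both aggrecanases, had the most negative value (-0.637). The chromosome neighbours Adamts1 and Adamts5 had 0.505, and Adamts8 and Adamts15 had 0.376. Within cluster 7 an Adamts5 count was present in 87.8% of the thinned cells with Adamts1 and in 72.6% of those without it.

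Over 8555 genes with a mean over lines of at least 20 in some cluster, those whose pattern over the same 21 means was most like a member were named by their correlation. For Adamts2 they were Ccl11 (0.959) and Chst7 (0.942), for Adamts5 Limch1 (0.887) and Efhd1 (0.833), and for Adamts1 Atp2a2 (0.866) and Ccnd2 (0.859). The vascular SMC member Adamts15 was closest to S1pr3 (0.894) and Adamts8 to Ppp1r12b (0.852). Adamts9 was closest to Dab2ip (0.879), Adamts4 to Ptprk (0.852), Adamts10 to Vegfc (0.825) and Adamts12 to Ttc3 (0.805). Among so many genes a high value for some gene arises readily, and no shared function is read from it.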

How the data were processed

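Single cells were sorted into 384-well plates and their SmartSeq2 libraries were sequenced as single reads of 50 bases. The authors used TopHat2 for alignment to GRCm38 and featureCounts for read counts per gene. Each well held 92 ERCC spike-in RNAs, and low-depth cells had been removed. The study's methods describe gating against doublets in the sort, and no doublet caller was run here. The deposited table holds raw read counts of 46609 rows by 1646 cells, of which 46517 are genes. Spike-ins took 1.36% of counts and were left out. Strand use in counting is not given in the sources used here.

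Symbols, positions and exon lengths came from GENCODE vM21. Cells were grouped by the cluster and reporter line in the labels. Levels are counts per 500000 gene counts. Counts were summed per class and line (at least 10 cells) and tested in R 4.3.3 with edgeR 4.0.16 (quasi-likelihood test, TMM, filterByExpr, Benjamini-Hochberg adjustment over all genes, threshold 0.05). DESeq2 1.42.0, limma 3.58.1 on log2(level + 1), no filter, sums of at least 3 cells, plates as samples, the line as a block and leaving out each line were alternatives. Leaving out plate colon_075s, plates colon_685s and colon_686s, or a line from the per-kilobase sums was chosen after seeing the data. The scripts were tested on simulated data. The same lines, and the same plates within them, gave the classes compared, so the line pairs the sums. Same-line sums deviated together between fibroblasts and mural cells (r of 0.0796, 0.188 and 0.230 for Acta2GFP, Cspg4dsRED and PdgfrbGFP over 7695 genes), along the crypt axis (0.155 to 0.207) and between clusters 7 and 1 (0.0957 to 0.172).

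All 10 genes were reported in full. The members and the gene lists (other family members, ADAMTS-like genes, substrates, inhibitors, convertases and carboxy-terminal processing) were chosen with earlier results of these data known. The list scores have no p. With 1 to 4 lines a class, precision is limited by the number of lines, and intervals of shares treat cells as independent.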

Additional observations from a re-analysis of the deposited data

Results flagged for a closer look

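Among 36 groups of 4 to 9 lines or plates looked at for a single value far from the rest, 8 stood out. The groups share cells and many levels are low and uneven, so no chance rate is given. By line, Adamts10 in fibroblasts was 49.9 in PdgfraGFP cells and 73.5 to 76.4 in the other 3 lines. Adamts15 in fibroblasts was 15.8 in Cspg4dsRED cells against 0.893 to 3.07, and in cluster 5 it was 33.5 in Cspg4dsRED cells (13 cells) against 0.321 to 3.13. By plate, Adamts5 in fibroblasts was 117 on plate colon_682s against 36.0 to 76.1 on the other plates. Adamts9 in fibroblasts was 32.8 on plate colon_686s against 0.513 to 4.88. Adamts12 in mural cells was 14.6 on plate colon_516s against 0.381 to 4.96. Adamts15 in fibroblasts was 15.8 on plate colon_516s, which is the single Cspg4dsRED plate, against 0.159 to 7.64, and Adamts15 in mural cells was 99.3 on plate colon_073s (10 cells) against 3.10 to 19.7.

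Of 9 members whose difference between fibroblasts and mural cells was set side by side in Acta2GFP and PdgfrbGFP plates, Adamts4 was the one where all plates of a line went opposite ways. Its mean difference in log2(level + 1) was -1.13 on the Acta2GFP plates, with fibroblasts lower, and 2.35 on the PdgfrbGFP plates, with fibroblasts higher. That difference between lines was not tested. The PdgfrbGFP value is a mean over colon_685s and colon_686s, with 54 and 26 fibroblasts, and colon_073s, with 10 mural cells. Over all cells of the line Adamts4 was 52.1 in fibroblasts and 54.5 in mural cells, a difference of -0.065.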

How the results depend on the processing

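The direction of the members called in the comparisons of the report was the same under all alternatives run for them, and the cause of each lost call was not tested. Between fibroblasts and mural cells 3 members were called, 0 with the line as a block and 0 to 1 when a line was left out. Along the crypt axis 3 were called, 5 by DESeq2 and 0 to 3 without a line. Between clusters 7 and 1, 1 was called, 4 by DESeq2, 4 with plates as samples and 0 to 2 without a line. Between pericytes and vascular SMC 0 were called, 1 by DESeq2, 2 without the filter, 1 with plates and 0 to 1 without a line. Between interstitial and vascular SMC 1 was called, 2 by DESeq2, 3 without the filter, 2 with plates, 0 with the line as a block, 0 with sums of at least 3 cells, 0 in limma and 1 to 3 without a line, where leaving out Acta2GFP gave no value. Besides these losses the block gained Adamts4 along the crypt axis and changed no other call of a member. The call of Adamts5 in cluster 2 ended in limma (adjusted p = 0.0571) and that of Adamts10 with plates (0.0530). The cluster with the highest level was the same for 8 of 9 members from summed counts (all but Adamts12), for 8 from plate means (all but Adamts4, then highest in cluster 1) and for 9 with spike-ins in the total.

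Signs turned in members that were not called. Between fibroblasts and mural cells Adamts4 had 0.40 with plates, Adamts5 -0.025 to 1.41 without a line, and Adamts12 1.02 with the block, 0.61 with plates, 0.19 in limma and -0.65 to 2.53 without a line. Between clusters 7 and 1 Adamts2 had -0.31 with sums of at least 3 cells and -0.024 to 0.13 without a line, and Adamts12 -0.064 without plate colon_075s and -0.26 to 0.56 without a line. Between pericytes and vascular SMC Adamts4 had -0.16 to 1.77 without a line, and Adamts9 1.13 with sums of at least 3 cells, 0.002 with plates, 0.04 in limma and -1.25 to 0.45 without a line. Between interstitial and vascular SMC Adamts2 had -0.11 with the block, Adamts4 1.86 with sums of at least 3 cells, Adamts10 -0.19 with the block, -0.80 with those sums and -0.29 to 0.34 without a line, and Adamts12 0.019 by DESeq2, 0.01 without the filter, 3.52 with the block, 0.45 with plates, 0.075 in limma and -0.60 to 4.45 without a line.

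Over all genes, calls higher and lower in fibroblasts were 615 and 644, 1611 and 1388 by DESeq2, 261 and 329 with the block and 1277 and 1238 with plates. Along the crypt axis they were 556 and 598, 1085 and 1606 by DESeq2 and 843 and 992 with plates. Between clusters 7 and 1 they were 166 and 148, 462 and 719 by DESeq2, 282 and 297 with the block and 371 and 375 with plates. In pericytes they were 43 and 66, 451 and 493 by DESeq2, 232 and 242 without the filter, 156 and 162 with plates, 63 and 106 with the block and 12 and 59 in limma. In interstitial SMC they were 65 and 105, 315 and 595 by DESeq2, 233 and 240 without the filter, 257 and 251 with plates, 20 and 108 with the block and 251 and 93 in limma. Low members such as Adamts8, Adamts9, Adamts12 and Adamts15 rest on few cells, and Adamts16 was too rare to be tested.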
